A study of Mus musculus with 18 samples.

Results

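Cdkn1c, Phlda2, Slc22a18, Kcnq1ot1, Kcnq1 and Cd81 are 6 genes of the Kcnq1 domain, a cluster on distal mouse chromosome 7 in which most genes are expressed from one parental chromosome. They were taken by symbol from the gene lists of the deposited matrices, in which 31053 mouse genes were counted, and each symbol matched 1 gene. Their transcripts were measured by single-cell RNA-seq in 18 libraries, each labelled as 1 E8.5 embryo of the 129S4/SvJae background: 7 from wildtypes (WT) and 3, 4 and 4 from embryos null for Dnmt1 (Dnmt1 KO), Dnmt3a (Dnmt3a KO) and Dnmt3b (Dnmt3b KO). The embryos came from matings of mice heterozygous for each mutation, no other allele or treatment is named, and genotypes were read by PCR from the ecto-placental cone. Reads from the maternal and paternal chromosome could not be told apart, so every level below is the sum of both alleles.

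Kcnq1ot1 is a long noncoding RNA that starts within an intron of Kcnq1 and is transcribed in the opposite direction. Its start lies in a region that carries DNA methylation on the maternal chromosome, where the RNA is silent; it is transcribed from the paternal chromosome and silences neighbouring genes there in cis. Cdkn1c, Phlda2, Slc22a18 and, in the early embryo, Kcnq1 are accordingly expressed mainly from the maternal chromosome, whereas Cd81 lies at the edge of the cluster and its imprinting is known mainly from the placenta. DNMT1 copies methylation marks to the new strand at each cell division, and DNMT3A and DNMT3B place new ones.

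By the reference annotation of GRCm38, Kcnq1ot1 (ENSMUSG00000101609) occupied chr7:143203458-143296549 on the minus strand, wholly inside Kcnq1 (ENSMUSG00000009545, chr7:143106362-143427042, plus strand). Only 121 bases of Kcnq1 exons fell inside the 93.1 kb of Kcnq1ot1, in 1 exon stretch. The study's methods name default mapping settings of Cell Ranger, under which only reads on the strand of a gene are counted for it; the strand setting itself is not given in the sources used here. Cdkn1c (ENSMUSG00000037664, chr7:143458339-143461050, minus strand) started 165 kb from the Kcnq1ot1 start, Slc22a18 (ENSMUSG00000000154, chr7:143473736-143499334, plus strand) 177 kb and Phlda2 (ENSMUSG00000010760, chr7:143501545-143503150, minus strand) 207 kb on the same side. Cd81 (ENSMUSG00000037706, chr7:143052739-143067934, plus strand) lay on the opposite side, with its start 244 kb away.

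Since DNA methylation in mammals sits mainly at CpG dinucleotides, the stretches upstream of the RefSeq starts are shown with each CG in capitals. The table of RefSeq starts used here (GRCm38.p6) was matched for 4 of the 6 genes, and the 250 bases before each start are printed 5′ to 3′ on the strand of the gene. These starts lay 626 bases (Phlda2), 53 bases (Slc22a18), 11 bases (Cd81) and 2 bases (Kcnq1ot1) inside the gene spans given above, so that the whole Phlda2 stretch and the last bases of the others fall within those spans. They lie at chr7:143296548-143296797 (minus) for Kcnq1ot1, chr7:143502525-143502774 (minus) for Phlda2, chr7:143473539-143473788 (plus) for Slc22a18 and chr7:143052500-143052749 (plus) for Cd81.
Kcnq1ot1: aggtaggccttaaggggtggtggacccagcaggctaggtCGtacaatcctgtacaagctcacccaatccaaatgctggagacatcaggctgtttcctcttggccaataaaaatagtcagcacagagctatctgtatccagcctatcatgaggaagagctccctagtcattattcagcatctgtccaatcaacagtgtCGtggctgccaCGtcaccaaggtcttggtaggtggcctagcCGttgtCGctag
Phlda2: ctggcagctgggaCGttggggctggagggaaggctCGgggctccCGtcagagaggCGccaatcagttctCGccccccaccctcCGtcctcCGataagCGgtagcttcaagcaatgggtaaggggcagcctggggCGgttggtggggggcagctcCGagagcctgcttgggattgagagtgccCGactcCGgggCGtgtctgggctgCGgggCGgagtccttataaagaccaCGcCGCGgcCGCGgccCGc
Slc22a18: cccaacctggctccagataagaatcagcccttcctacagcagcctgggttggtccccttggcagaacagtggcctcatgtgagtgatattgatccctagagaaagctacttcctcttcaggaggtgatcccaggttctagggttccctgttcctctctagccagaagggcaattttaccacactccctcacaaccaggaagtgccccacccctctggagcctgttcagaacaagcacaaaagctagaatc
Cd81: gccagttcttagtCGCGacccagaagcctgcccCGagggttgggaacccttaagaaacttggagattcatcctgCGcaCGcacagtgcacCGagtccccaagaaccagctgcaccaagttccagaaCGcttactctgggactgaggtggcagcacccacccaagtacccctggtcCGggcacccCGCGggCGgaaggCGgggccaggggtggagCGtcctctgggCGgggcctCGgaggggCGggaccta
The median over 32851 such stretches was 6 CpGs, and 92.1% held at least 1. Phlda2 had 21 CpGs, a number that 16.3% of stretches reached, and Cd81 had 16, reached by 25.4%. Kcnq1ot1 had 5 (55.6% had as many) and Slc22a18 had none. The letters CCAAT, searched on both strands (as CCAAT or ATTGG), occurred 3 times before Kcnq1ot1, as often as in 2.79% of stretches, once before Phlda2, and not before Slc22a18 or Cd81, against 33.8% of all stretches with at least 1. These letters describe the sequence; methylation was not measured in these libraries.

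After filtering, 109962 of 162336 barcodes were kept over the 18 libraries, with 1366 to 12716 cells and 36516346 to 234638944 UMIs (unique molecular identifiers, each counting 1 captured transcript) per library. Libraries Dnmt3b KO 1 and 2 shared 12249 barcodes, 86.5% and 79.3% of their barcodes, against at most 133 for any other of the 153 pairs of libraries, and were therefore summed and counted as 1 embryo (Dnmt3b KO, n = 3). Of these, 7853 were kept in both libraries, so that cell numbers of that embryo and of all libraries together count them once per library. As a check of the labels, Dnmt1 was at 14.9 to 15.7 CPM (counts per 1000000 UMIs of the kept cells) in the Dnmt1 KO and at 83.3 to 116 CPM in WT. Dnmt3a was at 7.35 to 11.7 CPM in the Dnmt3a KO and at 23.1 to 34.97 CPM in WT, but it was also low in Dnmt3b KO 11 (15.1 CPM) and Dnmt3b KO 12 (7.55 CPM). The Dnmt3b KO 12 value lay within the range of the Dnmt3a KO. Dnmt3b was no lower in the Dnmt3b KO than in WT, so its level did not check that label. The deleted part of Dnmt3b is not given in the sources used here. By Y-linked transcripts, 1 of 7 WT embryos was male, against 3 of 3 Dnmt1 KO, 4 of 4 Dnmt3a KO and 2 of 3 Dnmt3b KO embryos, so sex was unbalanced between WT and every knockout.

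To ask how loss of each methyltransferase changed the domain, UMIs were first summed over all kept cells of an embryo. Differences were tested with edgeR's quasi-likelihood test over 18760 genes. A gene was called when its Benjamini-Hochberg adjusted p was below 0.01 and its level differed by 1 or more on the log2 scale, up or down. In the Dnmt1 KO, 3 of the 6 genes were called, all of them lower (Cdkn1c, Kcnq1 and Slc22a18), against 14.3% of all genes called and 6.11% called lower. None of the 6 was called in the Dnmt3a KO (0.224% of all genes), where no group stood apart from WT either (2.22% of all genes), or in the Dnmt3b KO (1.8%). At an unadjusted p under 0.05, 0 of the 6 passed in the Dnmt3a KO (9.54% of all genes) and 5 in the Dnmt3b KO (17.9% of all genes), and DESeq2 called 0 in both. In such sums, fewer cells of a type and less RNA per cell cannot be told apart. The levels within cell types follow further on. From cell type proportions of its own and published embryos, the study describes Dnmt1 KO embryos as slightly delayed in development. The part of this delay in the Dnmt1 KO differences was not tested.

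Cdkn1c encodes p57, an inhibitor of cyclin-dependent kinases that restrains growth of the embryo and placenta. Its level ranged from 221 to 391.9 CPM in WT (median 356) but was 11.2, 9.72 and 7.69 CPM in the Dnmt1 KO embryos. The lowest WT embryo thus stood far above the highest Dnmt1 KO embryo, and the fitted log2 fold change was -5.01 ± 0.22 (standard error; adjusted p 1.19e-10), or 32.2 times lower. Allantois and cardiomyocytes, the cell classes with the highest Cdkn1c level in WT, made up 0.799% to 5.34% and 1.59% to 3.29% of WT cells but 0.0655% to 0.157% and 0.0327% to 1.503% of Dnmt1 KO cells, and the part of this in the whole-embryo values of Cdkn1c and of Phlda2, also highest in allantois, was not tested. In the Dnmt3a KO, Cdkn1c was at 416, 340, 298 and 327 CPM, overlapping WT (log2 fold change 0.092 ± 0.15, adjusted p 0.909). In the Dnmt3b KO it was at 513, 439 and 551 CPM, all above the highest WT embryo, with a log2 fold change of 0.61 ± 0.16 that did not pass (adjusted p 0.0417).

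Kcnq1ot1 was at 136 to 233 CPM in WT (median 211) and at 343, 251 and 319 CPM in the Dnmt1 KO. All 3 Dnmt1 KO embryos lay above all WT embryos, with a log2 fold change of 0.66 ± 0.18 (adjusted p 0.0076), which is under the fold threshold. With sex (male or not, by Y-linked transcripts) as a covariate the value was 0.48 (adjusted p 0.214). WT 2 was the only male WT embryo in that fit. In the Dnmt3a KO it was at 146, 135, 135 and 265 CPM (log2 fold change -0.29 ± 0.17, adjusted p 0.62), and in the Dnmt3b KO at 202, 123 and 115 CPM (-0.50 ± 0.19, adjusted p 0.173). These groups overlapped with WT. Among all genes, 27.3% had groups that did not overlap between the Dnmt1 KO and WT.

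Phlda2 encodes a small pleckstrin-homology protein that limits placental growth. WT embryos had 353 to 541 CPM (median 455), and the Dnmt1 KO embryos had 319, 561 and 652 CPM, on both sides of the WT range (log2 fold change 0.26 ± 0.20, adjusted p 0.32). The Dnmt3a KO embryos had 591, 544, 419 and 418 CPM (0.13 ± 0.18, adjusted p 0.887). The Dnmt3b KO embryos had 588, 857 and 701 CPM, above every WT embryo, but the log2 fold change of 0.65 ± 0.20 did not pass (adjusted p 0.0813). Cdkn1c and Phlda2 were the 2 of the 6 genes whose Dnmt3b KO and WT values did not overlap, against 6.51% of all genes.

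Slc22a18 encodes a transporter of the organic cation family. Its level was low, 3.23 to 6.63 CPM in WT (median 4.88), and 1.85, 2.22 and 2.06 CPM in the Dnmt1 KO. The groups did not overlap and the level fell by 1.18 ± 0.22 on the log2 scale (adjusted p 4.78e-04). This direction did not hold for the embryo without its extraembryonic ectoderm and endoderm and parietal endoderm cells, where the log2 fold change was 0.85 ± 0.21 (adjusted p 0.00488), and with the Y-linked covariate it was -0.78 (adjusted p 0.0449). Slc22a18 was at 6.77, 6.12, 4.87 and 5.71 CPM in the Dnmt3a KO and at 5.82, 6.58 and 7.98 CPM in the Dnmt3b KO, both overlapping WT (adjusted p 0.70 and 0.242). Without the extraembryonic classes it was called higher in the Dnmt3b KO, at 1.73 ± 0.20 (adjusted p 1.96e-05). Allantois and ExE mesoderm cells stayed in that sum, and allantois had the highest WT level of Slc22a18 after ExE endoderm. Allantois made up 3.21% to 6.13% of Dnmt3b KO cells against 0.799% to 5.34% of WT cells. The part of this in the Dnmt3b KO values of Slc22a18, Cdkn1c and Phlda2 was not tested.

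Kcnq1, a voltage-gated potassium channel subunit, was barely detected. The 7 WT embryos held 145 UMIs of it in all (2 to 34 each), and the 3 Dnmt1 KO embryos held 4 (1, 2 and 1). On the scale of summed CPM this is a ratio of 0.105 (exact 95% interval 0.0281 to 0.274, covering counting error only), and edgeR called the gene lower (adjusted p 1.39e-04). The ratio was 1.00 (0.768 to 1.30) for the 100 UMIs of the Dnmt3a KO and 1.03 (0.78 to 1.36) for the 84 UMIs of the Dnmt3b KO. In WT, Kcnq1 was highest in notochord and cardiomyocytes. Notochord made up 0.209% to 0.658% of WT and 0.196% to 0.327% of Dnmt1 KO cells. Cardiomyocytes made up 1.59% to 3.29% of WT and 0.0327% to 1.503% of Dnmt1 KO cells. The part of this in the Kcnq1 difference was not tested.

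Cd81, a tetraspanin of the cell surface, was at 146 to 197 CPM in WT (median 178) and at 157, 120 and 139 CPM in the Dnmt1 KO, overlapping WT (log2 fold change -0.27 ± 0.13, adjusted p 0.126). It was at 208, 161, 206 and 219 CPM in the Dnmt3a KO and at 186, 197 and 292 CPM in the Dnmt3b KO, and neither difference passed (adjusted p 0.70 and 0.191). The plot of levels by embryo shows these values for all 6 genes.

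**Figure D1:**
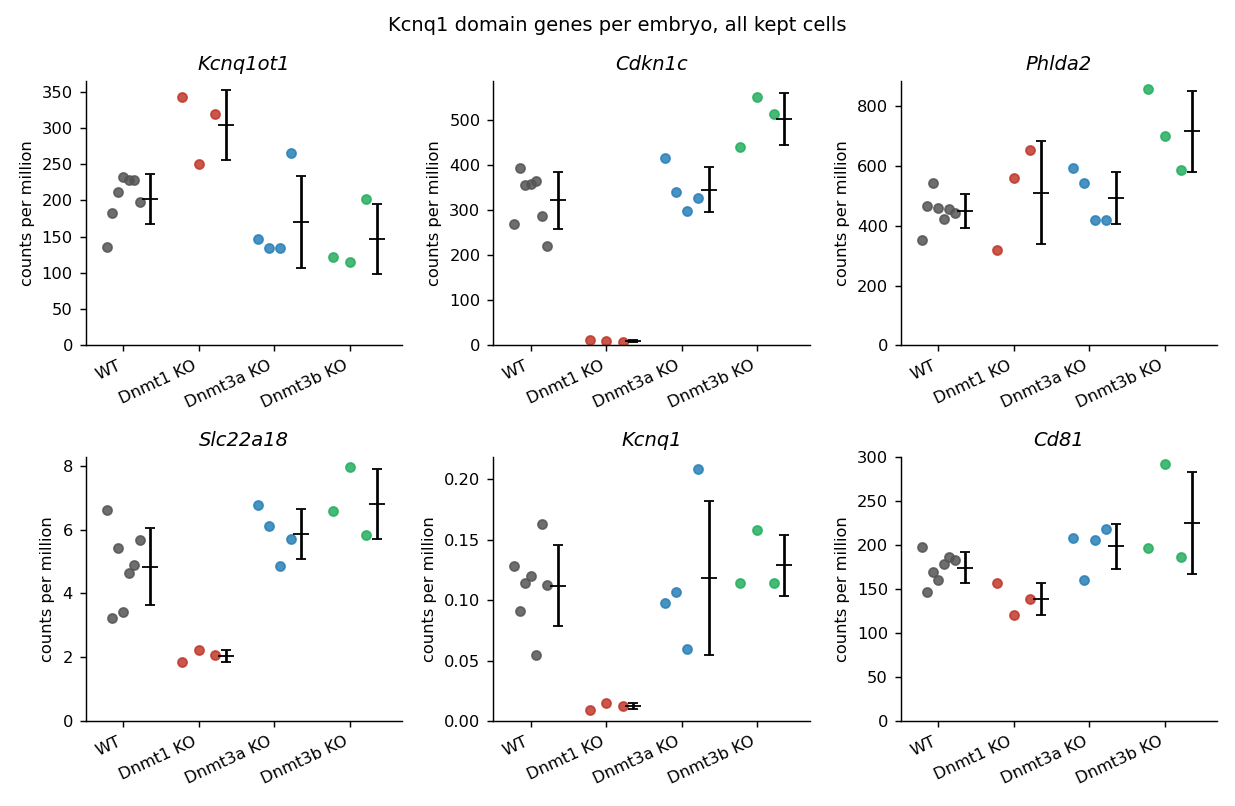
Level of the 6 domain genes over all kept cells of each embryo, in CPM on a linear axis from 0, by group (WT n = 7, Dnmt1 KO n = 3, Dnmt3a KO n = 4, Dnmt3b KO n = 3 with libraries 1 and 2 summed). Each point is 1 embryo, and the line and bar beside a group are its mean and SD; Cdkn1c lies between 7.69 and 11.2 CPM in the Dnmt1 KO and at 221 CPM or more in every WT embryo.

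Whether the knockouts differed from each other was tested in the same fit. Against the Dnmt3a KO, the Dnmt1 KO was lower for Cdkn1c (log2 difference -5.10), Kcnq1 (-3.05) and Slc22a18 (-1.44), so 3 of 6 were called, against 13.3% of all genes called and 6.46% called lower. Kcnq1ot1 was higher by 0.95 ± 0.20 (adjusted p 0.00167), under the fold threshold, and passed it without Dnmt3a KO 14 (1.13) or without Dnmt1 KO 2 (1.05). Against the Dnmt3b KO it was lower for Cdkn1c (-5.61), Kcnq1 (-3.18) and Slc22a18 (-1.63) and higher for Kcnq1ot1 (1.16), so 4 of 6 were called, against 8.66% of all genes (4.96% lower and 3.7% higher). The Kcnq1ot1 call was lost without Dnmt3b KO 12 (0.999, just under the fold threshold) and without Dnmt3b KO 11 and 12 (0.73, adjusted p 0.113). Slc22a18 lost its call in both comparisons without the extraembryonic classes (-0.031 and -0.88). Between the Dnmt3b KO and the Dnmt3a KO none of the 6 was called by edgeR (0.213% of all genes), 2 had an unadjusted p under 0.05 (6.83% of all genes), and Cdkn1c differed by 0.51 ± 0.18 (adjusted p 0.406).

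The wider chromosome segment was described with a list of 18 neighbours, of which 15 could be tested (median log2 fold change in the Dnmt1 KO -0.68, against 0.015 over all genes). In the Dnmt1 KO, 3 were called higher, 5 lower and 7 not, against 8.15% of all genes called higher and 6.11% called lower. Igf2, a growth factor of the adjoining imprinted domain, fell by 3.20 on the log2 scale, from 9.25 ± 1.79 to 0.933 ± 0.815 CPM (SD), and H19, the noncoding RNA reciprocally imprinted with it, rose by 1.60, from 493 ± 50.4 to 1430 ± 317 CPM. Ascl2, a transcription factor of the trophoblast lineage, rose by 4.32, to 4.63, 6.26 and 59.4 CPM in the 3 embryos. Osbpl5 (-1.38), Tnfrsf23 (-1.40), Mrgpre (-1.92) and Ins2 (-4.10) also fell. Without the extraembryonic ectoderm and endoderm classes, Igf2 stood at -5.39, and the calls of Ascl2 (0.052), Ins2 (-1.85, adjusted p 0.0651) and Osbpl5 (-0.95) were lost, and with the Y-linked covariate those of Ins2 (-2.88) and Mrgpre (-1.64). The Tnfrsf23 call was lost with every library thinned to the UMI total of the smallest (-0.90, adjusted p 0.156) and without Dnmt1 KO 2 (-1.34, adjusted p 0.0136). Thinning also lost the Mrgpre call (-1.87, adjusted p 0.0104). Th rose by 1.68 with an adjusted p at the threshold (0.00996), lost in 13 of 18 fits that left out 1 library and without the extraembryonic classes (0.66). Tssc4 (-0.68) and Nap1l4 (-0.071), which lie between or beside the 6 genes, were not called. H19, Osbpl5, Tnfrsf23, Th, Tssc4 and Nap1l4 were named after their values were seen. None of the 15 was called in the Dnmt3a KO or Dnmt3b KO, where their medians were 0.19 and 0.18.

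**Figure D2:**
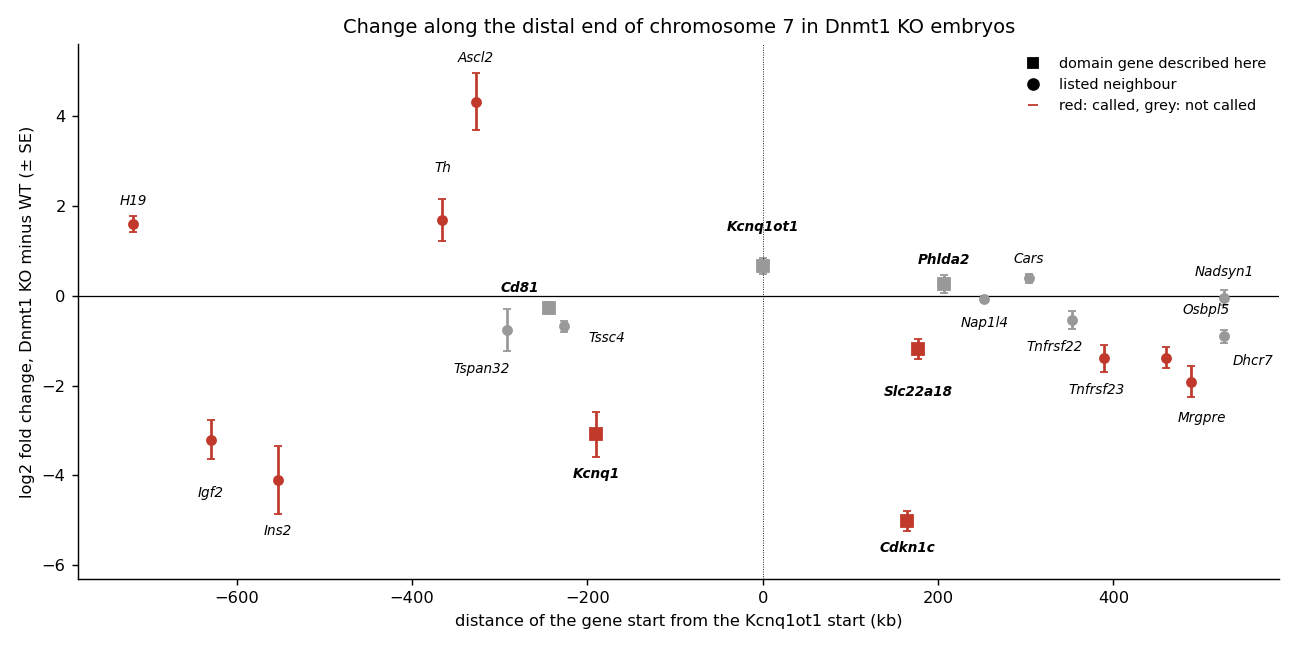
Log2 fold change (Dnmt1 KO minus WT, whole embryo, ± SE) of the domain genes (squares) and listed neighbours (circles) by distance in kb of the gene start from the Kcnq1ot1 start, with called genes in red and others in grey. Cdkn1c, 165 kb from the Kcnq1ot1 start, is at -5.01 and Phlda2, at 207 kb, is at 0.26; the Kcnq1 value rests on 4 UMIs in the Dnmt1 KO.

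Relatives of the members outside the domain were read from lists of the same families, and their counts stand against 14.3% of all genes called in the Dnmt1 KO. Of 6 other Cdk inhibitors, Cdkn1a (log2 fold change 1.53), Cdkn2a (2.27) and Cdkn2b (2.23) rose in the Dnmt1 KO and 3 were not called, whereas Cdkn1c fell. Without the extraembryonic classes Cdkn2a was at 1.27 and no longer called (adjusted p 0.0727), and Cdkn2b was at 1.35. Phlda3 rose by 2.02 and Phlda1 was not called (-0.88). Of 9 Kcnq channels and Kcne subunits, 6 could be tested, of which Kcne3 was lower (-1.19, and -0.49 without the extraembryonic classes; the call was also lost without Dnmt1 KO 1 or 2 and in thinned libraries) and 5 were not called. None of 6 tetraspanins was called, with Cd63 at 0.80 and Cd9 at 0.73. Among 5 tested imprinted long noncoding RNAs, H19 and Mirg (1.01) were higher and Meg3 (0.92), Airn (0.89) and 1 other were not called. The Mirg value lay at the fold threshold, and its call was lost in 5 of 18 fits that left out 1 library (0.84 at the lowest, without Dnmt1 KO 1) and with no low-count filter (0.98). None of these genes was called in the Dnmt3a KO or Dnmt3b KO.

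To separate the level within a cell type from the number of cells, cells were clustered without the listed genes and clusters were named from marker lists, which gave 20 classes (each to be read as X-like) and left 8 of 43 clusters unnamed. In WT, 17 classes had at least 25 cells in at least 3 embryos. The following orders give, for each gene, the mean over embryos of CPM within a class (± SD), and 2 neighbours in an order are said to differ only where their gap exceeded the larger SD.

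Cdkn1c had the most neighbouring gaps beyond the larger SD, 9 of 16. It was highest in allantois (3229 ± 774 CPM, n = 6) and cardiomyocytes (2534 ± 503, n = 7), followed by notochord (1073 ± 596, n = 4), gut endoderm (681 ± 193), cranial and pharyngeal mesoderm (482 ± 141), ExE endoderm (394 ± 62.0; ExE, extraembryonic) and endothelium (379 ± 152). It was lower in ExE mesoderm (215 ± 38.3) and in ectodermal and paraxial classes (31.6 to 104), and lowest in immune (13.2 ± 1.99, n = 3) and erythroid cells (7.41 ± 2.97). The ends differed 436 times, against 479 times for Phlda2. The allantois and cardiomyocyte levels did not differ by this measure.

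Phlda2 and Slc22a18 shared their leading classes. Phlda2 was at 4209 ± 391 CPM in allantois and 1044 ± 87.5 in ExE endoderm, with both gaps beyond the larger SD, then at 483 ± 145 in ExE mesoderm and 427 ± 107 in presomitic mesoderm, down to 8.79 ± 4.51 in erythroid cells (4 of 16 gaps beyond the larger SD). Slc22a18 was at 26.1 ± 5.64 CPM in ExE endoderm and 10.4 ± 3.30 in allantois, again with both gaps beyond the larger SD, and at 2.80 ± 0.813 or less in every other class (3 of 16 gaps).

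Kcnq1ot1 was the most even of the 6 genes, with a ratio of 2.66 between cardiomyocytes (352 ± 69.1 CPM) and ExE endoderm (132 ± 29.0) and only 1 of 16 gaps beyond the larger SD. The ExE mesoderm (136 ± 27.9) and allantois (156 ± 42.7) were next to the lowest. Kcnq1 was detected above 0.5 CPM only in notochord (2.50 ± 1.02, from 10 UMIs), cardiomyocytes (1.03 ± 0.609, 30 UMIs) and endothelium (0.729 ± 0.218, 30 UMIs) and had no UMI in 4 classes. Cd81 was highest in endothelium (575 ± 147) and lowest in erythroid cells (28.4 ± 3.65), with 4 of 16 gaps beyond the larger SD.

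**Figure D3:**
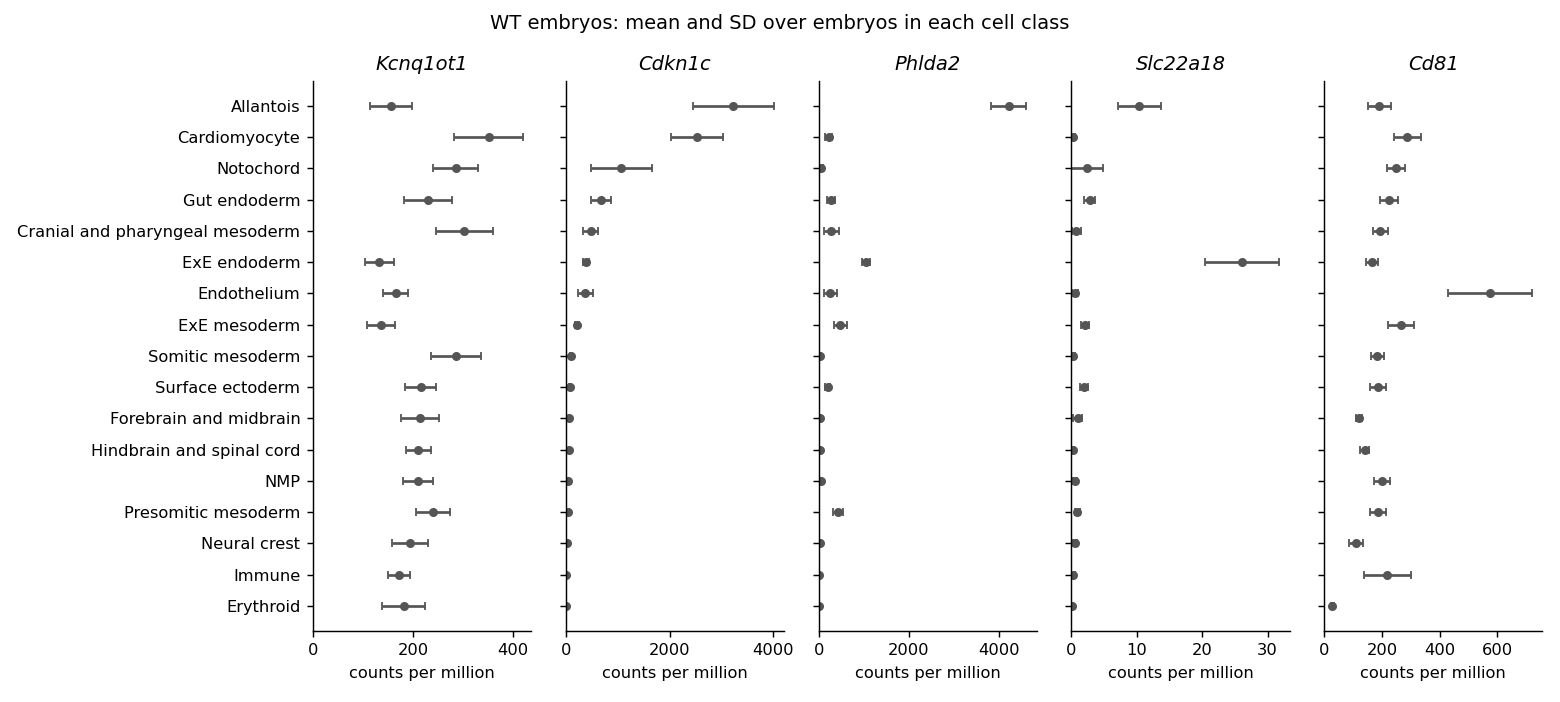
Level of 5 domain genes (Kcnq1 is left out) in the 17 cell classes of WT embryos, in CPM on a linear axis, with a point at the mean over embryos and a bar for the SD. Allantois leads for Cdkn1c (3229 CPM) and Phlda2 (4209 CPM), whereas Kcnq1ot1 spans only 132 to 352 CPM.

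Over the 17 WT classes, Phlda2 correlated with Cdkn1c at r = 0.73 and with Slc22a18 at r = 0.72, and Kcnq1ot1 correlated with Slc22a18 at r = -0.48 (Pearson's r of mean log2(CPM + 1), a description over class means that share libraries and depth). Of 12441 genes, those with the pattern most like each member were Trp53inp2 (0.93), Tnks (0.93) and Secisbp2l (0.92) for Cdkn1c; Tbx3 (0.95), Rras2 (0.90) and Vps37a (0.90) for Phlda2; and Clcn7 (0.92), Echdc2 (0.91) and Cstb (0.90) for Slc22a18. For Kcnq1ot1 they were Rbm4 (0.92), Nelfcd (0.90) and Upf2 (0.88), for Kcnq1 they were Brox (0.87), Slmap (0.85) and Malat1 (0.84), and for Cd81 they were Fam160b1 (0.93), Zfp57 (0.91) and Sptbn1 (0.90). The Kcnq1 pattern rests on few UMIs. Its mean was 2.50 CPM in notochord, 1.03 in cardiomyocytes, 0.729 in endothelium and 0.197 or less in every other class.

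In the Dnmt1 KO, 7 classes could be compared with WT (at least 25 cells in at least 3 embryos of each group). Of 33 pairs of member and class tested, 18 were called, 8 higher and 10 lower, against 7.86% of all pairs of gene and class (4.32% higher and 3.54% lower). The groups did not overlap in 11 higher and 14 lower pairs, against 29.4% of all pairs. Pairs of a knockout share its embryos and are not separate observations. The Dnmt1 KO cells of 4 of these classes came mostly from clusters that held over 90% Dnmt1 KO cells: 99.6% of cranial and pharyngeal mesoderm, 99.6% of presomitic mesoderm, 83.1% of ExE mesoderm and 72.8% of ExE endoderm. The endothelium, gut endoderm and immune classes had no Dnmt1 KO cell in such clusters. A comparison within the other 4 is thus largely between different clusters, and the part of this in the results was not tested. In the 1 immune cluster, 60.4% of cells were Dnmt1 KO cells. Megakaryocyte was its next class by marker score (4.68 against 6.06 for immune).

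Cdkn1c fell in 7 of 7 classes, and in each of them every Dnmt1 KO embryo was below every WT embryo. In endothelium it was at 225 to 701 CPM in WT (median 346) and at 2.45, 1.62 and 7.95 CPM in the Dnmt1 KO (log2 fold change -6.68 ± 0.44). In gut endoderm it was at 459 to 1005 CPM in WT and at 25.9, 24.7 and 32.7 CPM in the Dnmt1 KO (-4.50 ± 0.30). Neither class had Dnmt1 KO cells in clusters made up mostly of Dnmt1 KO cells, but the gut endoderm cells differed in their own markers, which summed to 5072 to 7249 CPM in the Dnmt1 KO against 1465 to 2734 CPM in WT. The log2 fold changes were -5.79 in cranial and pharyngeal mesoderm, -4.74 in ExE endoderm, -3.97 in immune cells, -3.62 in ExE mesoderm and -2.85 in presomitic mesoderm. The immune value rests on 2, 1 and 7 UMIs in the Dnmt1 KO and 24, 28 and 14 in WT (11.5 to 15.4 CPM). WT erythroid cells, the lowest class, were at 7.41 CPM. The cluster that held the Dnmt1 KO cells called cranial and pharyngeal mesoderm was led by Sfrp5, Mef2c, Rbm24 and Myocd among others, of which Mef2c and Myocd encode transcription factors of heart and muscle development, and held none of the class markers among its 10 leading genes. The size of the fall differed between classes (F test of class by KO terms, F = 7.40, adjusted p 4.07e-05), a test that 46.9% of all genes passed.

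Kcnq1ot1 rose in 5 of 7 classes, and its groups did not overlap in any of the 7. The largest changes were in ExE mesoderm, from 86.1 to 169 CPM in WT to 332, 307 and 348 CPM in the Dnmt1 KO (log2 fold change 1.37 ± 0.17), and in ExE endoderm, from 81.1 to 165 CPM to 341, 292 and 358 CPM (1.33 ± 0.19). It also rose in immune cells (1.29), gut endoderm (1.16) and endothelium (1.06). The endothelium call was lost without Dnmt1 KO 1 (0.95) and without WT 1 (0.99). The values in cranial and pharyngeal mesoderm (0.80) and presomitic mesoderm (0.63) had adjusted p of 3.41e-04 and 0.0024 but were under the fold threshold. Of the 7 classes compared, these had the highest mean levels in WT (303 and 241 CPM). The change differed between classes (F = 12.5, adjusted p 1.07e-07).

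Phlda2 moved in opposite directions. In ExE endoderm, where WT embryos had 929 to 1165 CPM (median 1015), the Dnmt1 KO embryos had 71.3, 84.3 and 67.8 CPM, and the level fell by 3.80 ± 0.16 on the log2 scale (13.9 times lower). In presomitic mesoderm it rose from 302 to 638 CPM to 1623, 1913 and 1825 CPM (log2 fold change 2.10 ± 0.18), and in ExE mesoderm from 324 to 764 CPM to 927, 1001 and 1275 CPM (1.25 ± 0.23). The groups did not overlap in these 3 classes and overlapped in the other 4, none of which was called (-0.82 to 0.75). The change differed between classes (F = 27.2, adjusted p 8.68e-13). The 3 called classes drew most of their Dnmt1 KO cells from clusters of over 90% Dnmt1 KO cells (72.8% in ExE endoderm, 99.6% in presomitic mesoderm, 83.1% in ExE mesoderm). Endothelium, gut endoderm and immune cells, with no Dnmt1 KO cell in such clusters, were not called. The part of this in the opposite directions was not tested.

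Slc22a18 followed the same signs as Phlda2 in ExE endoderm and presomitic mesoderm. In ExE endoderm it fell from 19.9 to 37.7 CPM in WT (median 25.4) to 1.89, 1.48 and 1.08 CPM (log2 fold change -4.03 ± 0.25, 16.3 times lower). In presomitic mesoderm it rose from 0.485 to 1.498 CPM to 3.87, 6.07 and 5.94 CPM (2.56 ± 0.34), which rests on 19, 25 and 51 UMIs. In ExE mesoderm (1.06, adjusted p 0.0295) and gut endoderm (-2.73, adjusted p 0.0148, 2 UMIs in the Dnmt1 KO) the groups did not overlap but the test was not passed. The change differed between classes (F = 79.1, adjusted p 8.61e-22), with the largest F of the 5 genes tested. Both called classes drew most of their Dnmt1 KO cells from clusters of over 90% Dnmt1 KO cells, and the part of this was not tested.

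The summed markers of the compared classes did not overlap between the Dnmt1 KO and WT, except in endothelium. They were higher in the Dnmt1 KO in gut endoderm and lower in the other classes. The summed level of 8 ExE endoderm markers was 22855 to 27869 CPM in the Dnmt1 KO and 32386 to 46811 CPM in WT, with no marker near 0. The main ExE endoderm cluster of the Dnmt1 KO had Apob and Cubn, lipid and uptake genes of the visceral endoderm, among its 10 leading genes. The presomitic mesoderm markers summed to 81.7 to 153 CPM in the Dnmt1 KO against 279 to 745 CPM in WT, and the Dnmt1 KO cells of that class came from a cluster led by Mesp1, a gene of nascent mesoderm. In cranial and pharyngeal mesoderm the markers summed to 532 to 680 CPM against 1012 to 1339 CPM, with Cyp26c1 under 1 CPM, and in ExE mesoderm to 1173 to 1662 CPM against 2018 to 2593 CPM. The immune markers summed to 35.04 to 108 CPM against 242 to 394 CPM. The endothelium markers overlapped between the groups (1329 to 1678 CPM against 1619 to 2105 CPM). The part of these differences in the results of Cdkn1c, Kcnq1ot1, Phlda2 and Slc22a18 was not tested.

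By the sign of the fit, Cd81 was lower in 7 of 7 classes (-1.01 to -0.088), which share their embryos. Its groups did not overlap in 4. It was called in immune cells, from 155 to 313 CPM in 3 WT embryos to 82.6, 94.9 and 106 CPM (-1.01 ± 0.22, adjusted p 0.00603), a call lost in 6 of 13 fits without 1 library. The immune markers also differed there, with a sum of 35.04 to 108 CPM against 242 to 394 CPM and Csf1r and Cx3cr1 under 1 CPM. The change of Cd81 differed between classes (F = 5.98, adjusted p 2.83e-04). Kcnq1 had too few UMIs to be tested in any class: endothelium held 30 UMIs in 1061 WT cells and none in the 174 Dnmt1 KO cells.

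**Figure D4:**
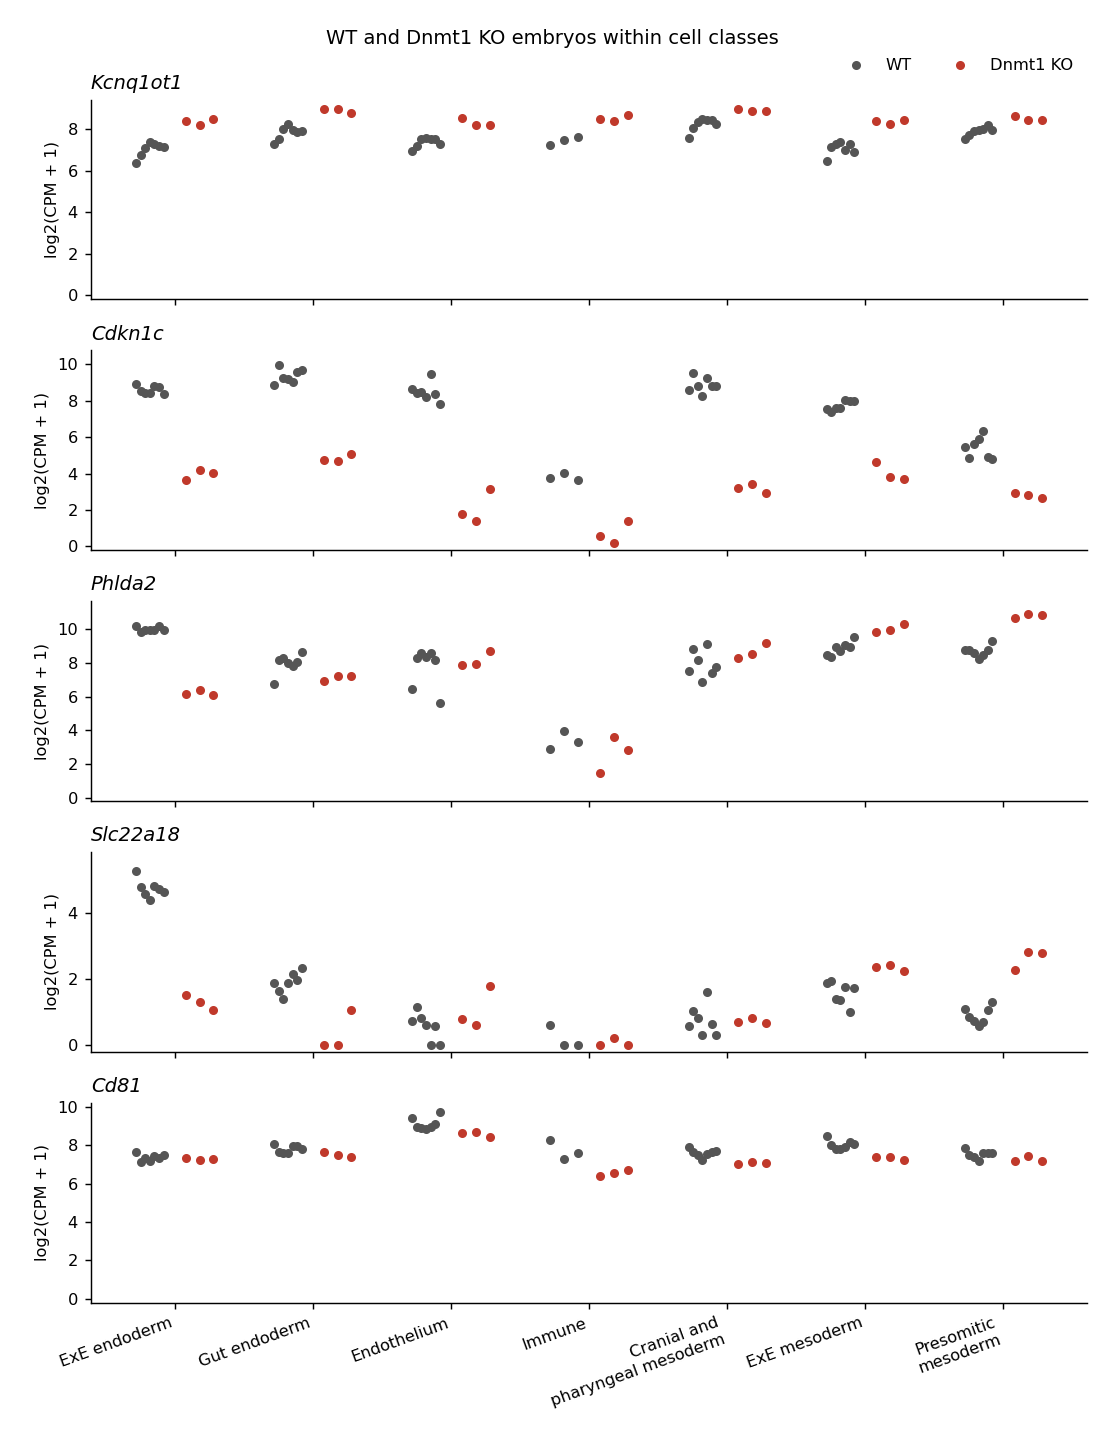
Level of 5 domain genes in the 7 classes compared between the Dnmt1 KO and WT (log2(CPM + 1)), with 1 point per embryo. Cdkn1c points of the Dnmt1 KO lie below those of WT in 7 of 7 classes, whereas Phlda2 and Slc22a18 lie below in ExE endoderm and above in presomitic mesoderm. In ExE endoderm and presomitic mesoderm, most Dnmt1 KO cells came from clusters of over 90% Dnmt1 KO cells.

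The 2 classes found almost only in the Dnmt1 KO were described without a test. In ExE ectoderm-like cells (4.63% to 31.1% of cells in the Dnmt1 KO, 0% to 1.72% in WT), Cdkn1c was at 7.12 ± 3.91 CPM, Phlda2 at 668 ± 267 CPM and Kcnq1ot1 at 140 ± 7.45 CPM in the Dnmt1 KO. The only WT embryo with 25 such cells had 191 CPM of Cdkn1c, 2194 CPM of Phlda2 and 114 CPM of Kcnq1ot1. In epiblast-like cells (9.63% to 17.1% of cells in the Dnmt1 KO), Cdkn1c was at 3.73 ± 0.476 CPM, Phlda2 at 143 ± 32.4 CPM and Kcnq1ot1 at 293 ± 32.0 CPM.

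In the Dnmt3a KO, none of 77 pairs of member and class over 17 classes was called by edgeR (0.114% of all pairs) or by DESeq2, and 9 had an unadjusted p under 0.05 (10.0% of all pairs). Kcnq1ot1 had a fold change below 1 in 17 of 17 classes, but between -0.39 and -0.061 on the log2 scale. By sign, Slc22a18 was above WT in 9 of 9 tested classes and Cd81 in 16 of 17. The classes share their embryos and are not separate observations, and the share of all genes with such runs was not computed. In 2 pairs the groups did not overlap (1.73% of all pairs), Cdkn1c in forebrain and midbrain (0.37, adjusted p 0.16) and Slc22a18 in allantois. The change did not differ between classes past the threshold for any of the 6 genes (3.7% of all genes passed).

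In the Dnmt3b KO, 2 of 73 pairs over 16 classes were called, both higher, against 0.676% of all pairs called and 0.64% called higher, and 13 had groups that did not overlap, against 4.71%. At an unadjusted p under 0.05, 48 of the 73 pairs passed, against 14.6% of all pairs, and DESeq2 called 3. The 73 pairs come from the same embryos and are not separate observations, so a shift in 1 embryo can count in many pairs. Slc22a18 rose in allantois, from 6.91 to 14.8 CPM in 6 WT embryos to 24.5, 23.7 and 56.5 CPM (log2 fold change 1.80 ± 0.26, adjusted p 7.01e-04; 1.31 without Dnmt3b KO 12). In the Dnmt3a KO, Slc22a18 in allantois was at 19.4, 17.3, 21.3 and 23.3 CPM, also above every WT embryo, but the log2 fold change of 1.03 ± 0.25 did not pass (adjusted p 0.135). Cdkn1c rose in ExE mesoderm, from 168 to 263 CPM to 246, 347 and 786 CPM (1.09 ± 0.23, adjusted p 0.00986), with groups that overlapped. This call rested on Dnmt3b KO 12, without which the value was 0.51 (adjusted p 0.359), and it was lost in 16 of 18 fits that left out 1 library. Dnmt3a was also low in Dnmt3b KO 12 (7.55 CPM over the whole embryo). Kcnq1ot1 was below WT in 16 of 16 classes by sign (-0.63 to -0.23), called in none. Other genes had runs above WT by sign: Cd81 in 15 of 16 classes, Phlda2 in 14, Cdkn1c in 13 and Slc22a18 in 8 of 9. These classes share their embryos, and the share of all genes with such runs was not computed. The change of Slc22a18 differed between classes (F = 4.94, adjusted p 2.33e-05, against 4.06% of all genes).

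**Figure D5:**
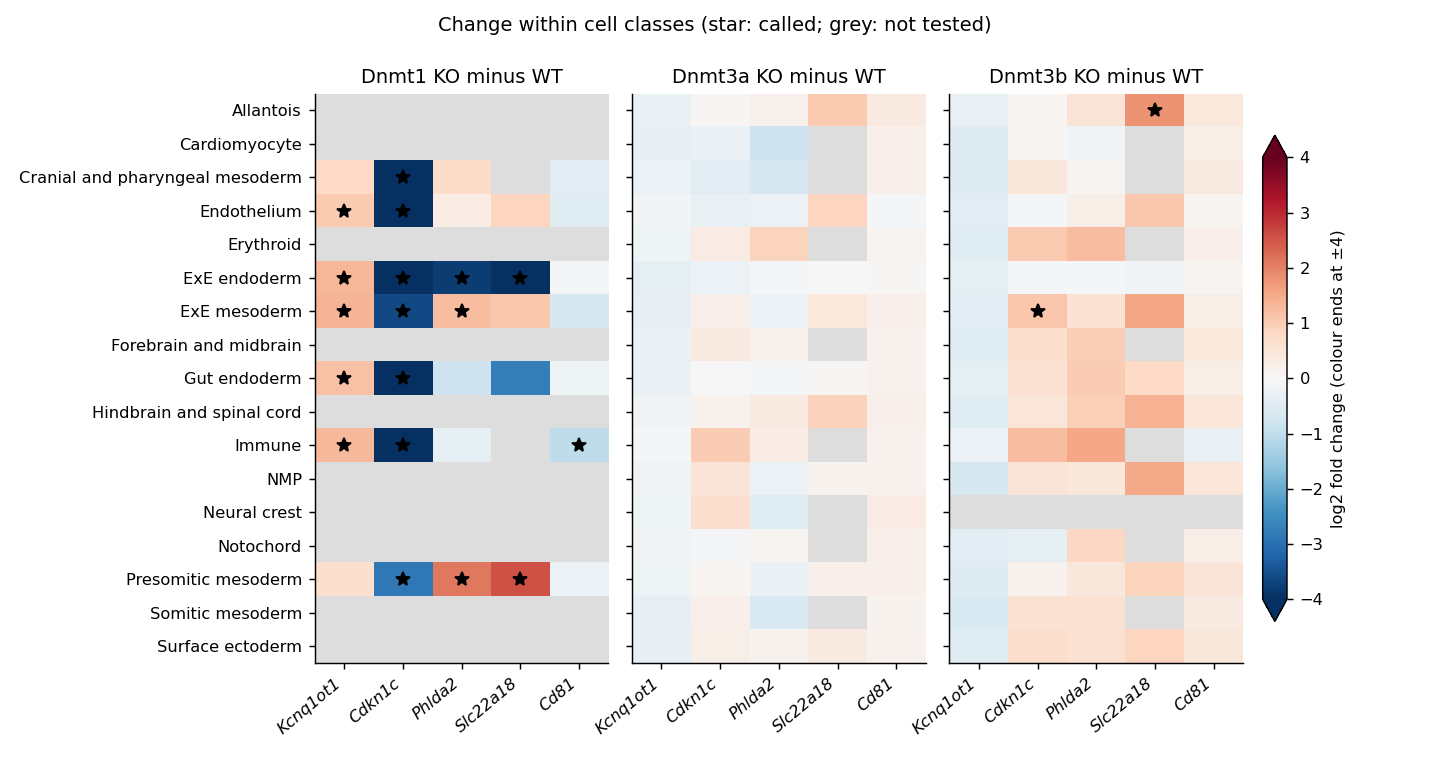
Log2 fold change against WT of 5 domain genes (columns) in each cell class (rows) for the 3 knockouts, as a colour from blue (lower) to red (higher) that ends at ±4, with a star for a call and grey for a pair not tested. In the Dnmt1 KO, Cdkn1c ranges from -6.68 to -2.85 and Kcnq1ot1 from 0.63 to 1.37; no pair has a star in the Dnmt3a KO and 2 have one in the Dnmt3b KO.

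Finally, the share of cells with at least 1 UMI of a gene was compared after thinning every cell to 1500 UMIs, by exact two-sided permutation tests over embryos, adjusted over 18 tests. Cdkn1c was found in 22.1% ± 2.26 of WT cells (SD, n = 7), 1.26% ± 0.264 of Dnmt1 KO cells (n = 3) and 29.5% ± 3.76 of Dnmt3b KO cells (n = 3). Both differences gave an exact p of 0.0167, the smallest that 3 against 7 embryos allow, and an adjusted p of 0.15. As a background, erythroid cells of WT, which had the lowest Cdkn1c level, gave 1.73% at the same thinning, with median depths per embryo of 11938 to 68880 UMIs before thinning. That background comes from WT libraries and sets no bound for the Dnmt1 KO libraries, which held 105 erythroid cells in all. Cells with a UMI held 2.29 UMIs of Cdkn1c on average in WT and 1.40 in the Dnmt1 KO. Unthinned, the Cdkn1c shares were 52.1% to 75.0% in WT and 11.1% to 21.9% in the Dnmt1 KO. Kcnq1ot1 was found in 20.7% ± 2.92 of WT cells and 26.9% ± 6.30 of Dnmt1 KO cells (exact p 0.10, adjusted p 0.27), and Phlda2 in 28.6% ± 4.14 and 29.2% ± 5.63 (exact p 0.833). No share passed the adjusted test (threshold 0.05). For the Dnmt1 KO and Dnmt3b KO no exact p could fall below 0.0167, which gave 0.15 after adjustment for Cdkn1c. A share that stood fully apart thus did not pass either.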

How the data were processed

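Single-cell RNA-seq (10x Genomics 3′ v3) was measured in 18 libraries, labelled as 1 embryo each. The deposited matrices hold counts: UMIs per gene and barcode, made by the authors with Cell Ranger (5.0.0 by the study's methods; 3.1.0 or 5.0.0 by the file headers) on mm10 with the GRCm38.92 annotation, 4 of them on a combined human and mouse reference. Mapping settings were the defaults by the study's methods, which count reads on the sense strand; the strand setting itself is not given in the sources used here. The members and gene lists were chosen with earlier results of these data known.

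Barcodes with at least 1500 mouse UMIs (128881 of 162336), at most 30% mitochondrial and at most 35% ribosomal UMIs were kept (117886), and 7924 doublets were removed, which left 109962 cells, of which Dnmt3b KO 1 and 2 share 7853 barcodes. Libraries Dnmt3b KO 1 and 2 were summed because they share barcodes. For classes, up to 1500 cells per library (26830 in all) were clustered (2500 variable genes without the members and listed genes, 50 components, 30 neighbours, Leiden resolution 2; scanpy 1.11.5), and clusters were named from marker lists. The naming thresholds, and the merging of head mesenchyme with pharyngeal mesoderm, were set after the scores were seen.

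Counts were summed per embryo, or per embryo and class with at least 25 cells, and tested with edgeR 4.0.16 (quasi-likelihood, TMM, low-count filter) in 1 fit of 4 groups, with Benjamini-Hochberg adjustment over all genes. The thresholds (adjusted p below 0.01, a difference of 1 or more on the log2 scale) are those of the study. CPM are counts per 1000000 UMIs of the kept cells, computed here from the deposited counts. Shares of cells were compared by exact permutation tests over embryos. On simulated counts for 17993 genes with 1 fixed spread, 100% of changed genes were recovered at log2 fold changes of -2, -1.5, 1.5 and 2. Smaller changes, changes in genes under 1 CPM and sums per class were not simulated. The alternatives were DESeq2 1.42.0, other size factors, no filter, thinned libraries, all barcodes, covariates for sex and reference, a replicate block, and each library left out. Depth was 36516346 to 234638944 UMIs per library; intervals cover counting error only. Named genes were the members, the listed genes (up to 4 examples a list, called genes first and then by size of change), the targeted genes and, for each member, the 3 genes with the highest correlation over WT classes. Same-numbered libraries of different groups did not deviate together. Nothing in the labels says that embryos of a group came from separate litters, so p-values measure the spread between these embryos.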

Additional observations from a re-analysis of the deposited data

Results flagged for a closer look

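In the Dnmt3a KO, Kcnq1ot1 stood apart from the group in Dnmt3a KO 14, at 265 CPM against 135 to 146 CPM in the other 3 embryos. The share of cells with a Kcnq1 UMI stood apart in WT 6 (0.0775% of cells thinned to 1500 UMIs, WT median 0%). That value rests on few cells, as WT 6 held 34 UMIs of Kcnq1 before thinning. Unthinned, the share was 0.639% in WT 6 and 0.666% in WT 7. The share with a Cd81 UMI stood apart at the low end in Dnmt3a KO 2 (19.1%). These 3 libraries were found among 24 groups of values tested, and chance gives about 1 in 20.

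The Dnmt1 KO effect differed between cell classes, by the test of class by KO terms, for Slc22a18 (F = 79.1), Phlda2 (F = 27.2), Kcnq1ot1 (F = 12.5), Cdkn1c (F = 7.40) and Cd81 (F = 5.98), and the Dnmt3b KO effect did for Slc22a18 (F = 4.94). Of all genes tested, 46.9% passed in the Dnmt1 KO and 4.06% in the Dnmt3b KO.

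The knockouts differed from each other over the whole embryo, in a direct test, for 3 genes between the Dnmt1 KO and the Dnmt3a KO: Cdkn1c (log2 difference -5.10), Kcnq1 (-3.05) and Slc22a18 (-1.44). Between the Dnmt1 KO and the Dnmt3b KO, Cdkn1c (-5.61), Kcnq1 (-3.18), Slc22a18 (-1.63) and Kcnq1ot1 (1.16) differed. Of all genes, 13.3% were called between the Dnmt1 KO and the Dnmt3a KO and 8.66% between the Dnmt1 KO and the Dnmt3b KO. Slc22a18 lost both calls without the extraembryonic classes (-0.031 and -0.88), and Kcnq1ot1 lost its call without Dnmt3b KO 12 (0.999).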

How the results depend on the processing

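Cdkn1c and Kcnq1 were called lower in the Dnmt1 KO in all 18 fits that left out 1 library, as was Slc22a18. Without the extraembryonic ectoderm, endoderm and parietal endoderm classes, Slc22a18 turned to 0.85 in the Dnmt1 KO against WT, 1.73 in the Dnmt3b KO (adjusted p 1.96e-05, so that 1 gene was called there), -0.031 for Dnmt1 KO minus Dnmt3a KO and -0.88 for Dnmt1 KO minus Dnmt3b KO, and Kcnq1 in the Dnmt3a KO to 0.048. With the Y-linked covariate, Slc22a18 was at -0.78 and Cd81 at 0.027 in the Dnmt1 KO, Cdkn1c at -0.064 and Kcnq1 at 0.28 in the Dnmt3a KO, and Kcnq1 at -0.0066 for Dnmt3b KO minus Dnmt3a KO. With the reference covariate, Kcnq1 was at 0.021 in the Dnmt3a KO and 1 pair of member and class was called in the Dnmt3b KO. The causes were not tested.

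The replicate numbers did not pair the libraries: the correlations of same-numbered deviations ran from -0.34 to 0.40 over 13 pairs, and 1 of 10 libraries correlated best with its own number. With the replicate block and Dnmt3b KO 1 and 2 separate, Cdkn1c alone of the 4 genes kept its call between the Dnmt1 KO and the Dnmt3b KO. Kcnq1ot1 was at 0.14 in the Dnmt3b KO, 0.64 (adjusted p 0.058, call lost) for Dnmt1 KO minus Dnmt3b KO and 0.44 for Dnmt3b KO minus Dnmt3a KO. In that blocked fit, Phlda2 was at -0.33 for Dnmt1 KO minus Dnmt3a KO and -0.061 for Dnmt3b KO minus Dnmt3a KO. Slc22a18 in the blocked fit was at -1.29 (adjusted p 0.0119) in the Dnmt1 KO, -1.62 and -1.38 (adjusted p 0.0130 and 0.0213) for Dnmt1 KO minus Dnmt3a KO and minus Dnmt3b KO, all 3 calls lost, and -0.23 for Dnmt3b KO minus Dnmt3a KO. Kcnq1 in the blocked fit was at -0.11 in the Dnmt3b KO, -2.89 and -2.96 (adjusted p 0.0132 and 0.0122, both calls lost) for Dnmt1 KO minus Dnmt3a KO and minus Dnmt3b KO, and Cd81 was at -0.0155 in the Dnmt3b KO and -0.065 for Dnmt3b KO minus Dnmt3a KO. With the block 0 pairs of member and class were called by edgeR in the Dnmt3b KO, where Slc22a18 in allantois was at 0.87 (adjusted p 0.609). Among the listed genes, the blocked fit of the Dnmt1 KO against WT lost the calls of Ins2 (adjusted p 0.0127), Osbpl5 (0.0165) and Mrgpre (0.0237). Those of Th (0.0629), Cdkn2a (0.0169) and Mirg (0.0267) were lost as well.

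Without Dnmt3b KO 11 and 12 (the lone sample left is assumed to vary like the other groups), Kcnq1ot1 was at 0.73 for Dnmt1 KO minus Dnmt3b KO and 0.21 for Dnmt3b KO minus Dnmt3a KO, Slc22a18 at -1.37 (adjusted p 0.0142, call lost) and -0.079, Kcnq1 at -0.12 in the Dnmt3b KO and -0.088 for Dnmt3b KO minus Dnmt3a KO, and Cd81 at -0.16 for the latter. Called pairs of member and class numbered 11 in the Dnmt1 KO with at least 50 cells per sum (endothelium, gut endoderm and immune cells then dropped out, and the 4 classes left also held 11 calls at 25 cells), 1 in the Dnmt3a KO with no filter, and in the Dnmt3b KO 1 with other size factors, 5 with no filter and 1 with libraries 1 and 2 separate. Without thinning, the difference in the share of cells (percentage points) was -0.277 for Phlda2 in the Dnmt1 KO and, in the Dnmt3a KO, -1.20 for Cdkn1c, -0.221 for Slc22a18, -0.100 for Kcnq1 and -2.84 for Cd81.

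When single libraries were left out, Kcnq1ot1 ranged from 0.87 to 1.13 for Dnmt1 KO minus Dnmt3a KO and from 0.999 (without Dnmt3b KO 12, call lost) to 1.26 for Dnmt1 KO minus Dnmt3b KO. Cdkn1c ranged from -0.016 to 0.19 in the Dnmt3a KO, Phlda2 from -0.092 to 0.40 for Dnmt1 KO minus Dnmt3a KO, and Cd81 from -0.044 to 0.22 for Dnmt3b KO minus Dnmt3a KO. Kcnq1 ranged from -0.36 to 0.18 in the Dnmt3a KO, from -0.057 to 0.19 in the Dnmt3b KO and from -0.078 to 0.47 for Dnmt3b KO minus Dnmt3a KO. Called pairs ranged from 16 to 20 in the Dnmt1 KO, from 0 to 1 in the Dnmt3a KO and from 1 to 3 in the Dnmt3b KO. The difference in share ranged from -1.57 to 3.79 for Phlda2 in the Dnmt1 KO, from -2.54 to 4.85 for Phlda2 in the Dnmt3a KO and from -0.00451 to 0.00841 for Kcnq1 in the Dnmt3b KO. Over all alternatives, 2340 values kept their direction and their side of the threshold, 113 were weaker, 7 were stronger and 42 changed sign. Depth limits Kcnq1, which had at most 49 UMIs in any embryo.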
